A study of Mus musculus with 6 samples.

Results

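Chemokine ligands are small secreted proteins that draw leukocytes along a concentration gradient, and 10 of their genes were followed here in aged mouse microglia: Ccl2, Ccl3, Ccl4, Ccl5, Ccl6, Ccl7, Ccl9, Ccl12, Cxcl2 and Cxcl16. They were taken by gene symbol from the deposited expression table, where all 10 were found among 14148 genes. RNA was sequenced from hippocampal microglia, the resident macrophages of the brain, of male C57BL/6 mice at 18 months of age. Live cells with CD11b and low CD45 were sorted on BODIPY, a dye for neutral lipid, into a BODIPY-high or lipid droplet-rich fraction (LD-high) and a BODIPY-low or lipid droplet-low fraction (LD-low). Each fraction had 3 libraries, each from the pooled hippocampi of 3 mice and about 10000 sorted cells, and all groups share strain, sex, age and region, with no genetic change or drug named in the labels. Nothing in the labels says whether the pools hold different mice, so p-values here measure how much these libraries vary, and part of that variation may be technical.

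Chemokines bind G protein-coupled receptors on the cells they attract, and most are named for the spacing of their first cysteines, adjacent in the CC class (Ccl genes) and split by 1 residue in the CXC class (Cxcl genes). In mice, Ccl2, Ccl7 and Ccl12 call in monocytes through the receptor Ccr2. Ccl3, Ccl4 and Ccl5 attract T cells and macrophages, and Ccl3, Ccl5 and the rodent ligands Ccl6 and Ccl9 act on Ccr1. Cxcl2 attracts neutrophils through Cxcr2, and Cxcl16 is a membrane-bound ligand of Cxcr6 that proteases can shed. Microglia are a known source of several of these ligands, and many of the genes are switched on by inflammatory signals through NF-kB.

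The libraries held between 15895576 and 38489448 reads in genes, and LD-high replicate 3 was the shallowest. Values are normalized counts, that is, reads divided by 1 size factor per library. Differences are log2 LD-high minus LD-low on the log2(normalized count + 1) scale. They were tested with limma over 11624 genes with at least 10 normalized counts in at least 3 libraries. Benjamini-Hochberg adjustment was used with a threshold of 0.05. Before adjustment, 2298 of these 11624 genes had a p under 0.05. Microglial markers were abundant in both fractions, with P2ry12 averaging 200006 ± 12648 normalized counts in LD-high and 200733 ± 5127 in LD-low libraries (SD, n = 3 each), and 0 of 12 markers passed the test in limma, with 1 at an unadjusted p under 0.05; edgeR called 0 of them and DESeq2 called Cx3cr1 lower. In contrast, 8 neutrophil markers (Ngp, Ltf, Camp, S100a8, S100a9, Mmp8, Mmp9 and Lcn2) had 0 reads in every LD-high library and summed to 1236, 1590.3 and 4576 normalized counts in LD-low replicates 1, 2 and 3. A further listed neutrophil marker is left out of this sum. With it, all 9 found summed to 19832 to 20401 in LD-high and 22295 to 24811 in LD-low libraries. In limma 6 of 7 tested neutrophil markers were called lower. The 8 monocyte markers summed to 111 to 130.2 normalized counts in LD-high and 299.6 to 742 in LD-low libraries, with Ly6c2, Chil3 and Vcan among those at 0 in every LD-high library. Border-associated macrophage markers, 9 without Stab1, summed to 424, 273 and 167 in LD-high replicates 1, 2 and 3. In LD-low replicates 1, 2 and 3 they summed to 567, 395 and 254. With Stab1 the sums were 16990 to 22429 in LD-high and 18268 to 19942 in LD-low libraries, so the fractions overlapped. Of 8 tested on that list 7 lay below 0 with a median of -0.52, and 0 passed in limma, edgeR or DESeq2, with 2 at an unadjusted p under 0.05 in limma. Choroid plexus markers went the other way, at 1719 to 5599.5 in LD-high and 363 to 1793 in LD-low libraries. With all libraries, Ttr, Kl and Enpp2 were called higher in limma and edgeR. DESeq2 called 2 markers of this list higher, Kl among them, but not Ttr or Enpp2. The limma calls were lost without LD-high replicate 1 or 3 or LD-low replicate 2. The part of these cells in the ligand values was not tested. In bulk libraries, fewer cells of a type and less RNA per cell cannot be told apart.

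Of the 10 ligand genes, Ccl12 was lower in LD-high microglia, 8 others did not pass the test, and Cxcl2 was too low to be tested. Thus 1 of 9 tested ligands was called lower and 0 were called higher, where 1.82% of all genes tested were called lower, 1.53% higher and 3.36% in either direction. Counting models on the recovered reads also called Ccl12 alone, edgeR against a background of 3.24% called (1.81% lower) and DESeq2 against one of 5.85% (2.72% lower). The median log2 difference of the 9 was -0.31, beside -0.01 over all genes tested, and 8 of the 9 lay below 0. The values of the fractions did not overlap for Ccl12 and Ccl7, both lower in LD-high, where 24.3% of all genes tested had groups that did not overlap, 11.7% with LD-high lower and 12.7% with LD-high higher. The 10 genes together summed to 10932, 10354 and 11507 normalized counts in LD-high replicates 1, 2 and 3, against 11339, 11197 and 12277.5 in LD-low replicates 1, 2 and 3. LD-high replicate 3 exceeded LD-low replicates 1 and 2 in this sum, so the fractions overlapped.

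**Figure D1:**
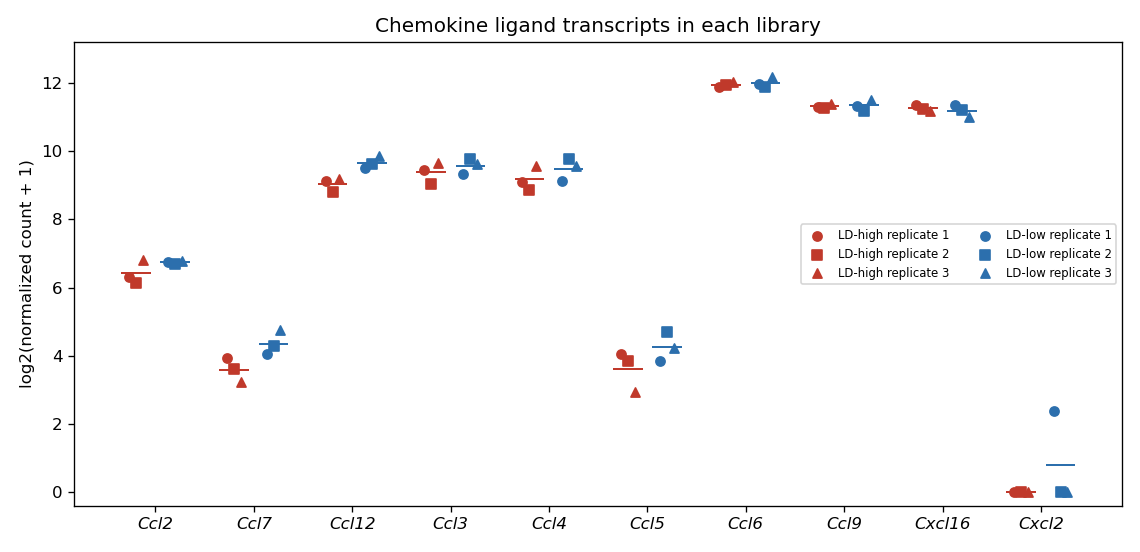
Normalized counts of the 10 chemokine ligand genes, as log2(normalized count + 1) on the vertical axis, in each of 3 LD-high (red) and 3 LD-low (blue) libraries; marker shape gives the replicate number and short lines give the mean of the log2 values. Ccl12 and Ccl7 are the genes whose fractions do not overlap, and Cxcl2 has a value above 0 in LD-low replicate 1 alone.

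Ccl12, a mouse monocyte attractant that binds Ccr2, was the ligand that passed the test. It had 555, 443 and 583 normalized counts in LD-high replicates 1, 2 and 3, against 726, 785 and 936 in LD-low replicates 1, 2 and 3. Every LD-high library lay below every LD-low library. The means were 527 ± 73.7 in LD-high and 816 ± 108 in LD-low libraries (SD, n = 3 each), so that the LD-high mean was 64.6% of the LD-low mean. The log2 difference was -0.63 ± 0.13 (SE), with a 95% interval of -0.90 to -0.36 and an adjusted p of 0.0182 in limma. The gene (ENSMUSG00000035352) is a protein-coding gene of 3 exons on chromosome 11 of the mm9 build, chr11:81915347-81916902 on the plus strand, with a longest transcript of 537 bases. The 250 bases before its start are printed from RefSeq (GRCm38.p6, chr11:82101595-82101844, plus strand) because it is the member that passed the test, and capitals mark a TATAAA match that begins 31 bases before the start.
Ccl12: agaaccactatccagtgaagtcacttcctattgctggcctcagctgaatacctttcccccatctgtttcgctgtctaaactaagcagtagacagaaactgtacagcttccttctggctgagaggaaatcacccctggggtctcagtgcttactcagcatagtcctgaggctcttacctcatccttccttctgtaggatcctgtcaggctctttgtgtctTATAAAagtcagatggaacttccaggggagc

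The call for Ccl12 depended on which libraries were fitted. In limma it was kept without LD-high replicate 1 (adjusted p 0.0256), LD-high replicate 3 (0.0338) or LD-low replicate 1 (0.0172). It was lost without LD-high replicate 2 (log2 difference -0.51, adjusted p 0.0569), without LD-low replicate 2 (-0.65, adjusted p 0.0628) and without LD-low replicate 3 (-0.53, adjusted p 0.109), and also without a mean-variance trend (adjusted p 0.186). The SD of the log2 values of Ccl12 within fractions was 0.20. That was above 86.0% of the 1988 genes within 0.5 log2 units of its mean level, whose median was 0.13. The LD-low library with the most neutrophil marker counts, replicate 3, was also the highest in Ccl12. The LD-low libraries had the same order in neutrophil marker counts and in Ccl12. Monocyte markers (300, 410 and 742 in LD-low replicates 1, 2 and 3) shared this order. So did T and NK cell markers (82.8, 128 and 149). In LD-high neither of these sums had the order of Ccl12. The border-associated macrophage sum without Stab1 had the reverse order within LD-low. In LD-high, replicate 1 was the highest library of that sum while replicate 3 was highest in Ccl12. The part of any of these cell types in the Ccl12 difference was not tested. Set against other ligands of the same library, Ccl12 was 0.113 to 0.145 times Ccl6 in LD-high and 0.179 to 0.205 times in LD-low libraries. It was 0.723 to 0.835 times Ccl3 in LD-high and 0.8995 to 1.19 times in LD-low libraries. The ratios to Ccl6 and Ccl3 did not overlap between fractions, while those to Ccl4, Ccl2 and Ccl7 did. Ccl12 was higher than Ccl4 in LD-high replicate 1 (555 against 553) but lower in LD-low replicate 2 (785 against 874). Ccl12 was 5.21 to 7.03 times Ccl2 in LD-high and 6.85 to 8.54 times in LD-low libraries. It was 39.2 to 69.8 times Ccl7 in LD-high and 36.0 to 47.0 times in LD-low libraries.

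The other Ccr2 ligands had lower means in LD-high libraries but did not pass the test. Ccl2, the main monocyte attractant of this group, had 79.0, 69.4 and 112 normalized counts in LD-high replicates 1, 2 and 3, against 106, 103 and 109.6 in LD-low replicates 1, 2 and 3. LD-high replicates 1 and 2 lay below all LD-low libraries, while LD-high replicate 3 lay above them. Its log2 difference was -0.32 ± 0.23 (SE, 95% interval -0.81 to 0.17, adjusted p 0.474 in limma), and with 1 library left out it ranged from -0.51 without LD-high replicate 3 (adjusted p 0.286) to -0.17 without LD-high replicate 2 (0.758).

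Ccl7, another Ccr2 ligand, was near the lower end of what was tested. It had 14.2, 11.2 and 8.35 normalized counts in LD-high replicates 1, 2 and 3, which rest on 19, 10 and 5 reads. In LD-low replicates 1, 2 and 3 it had 15.4, 18.4 and 26.0, from 22, 17 and 28 reads. The fractions did not overlap, but LD-high replicate 1 and LD-low replicate 1 lay close together. The log2 difference of -0.77 ± 0.51 (SE) had a 95% interval of -1.86 to 0.31 and an adjusted p of 0.421 in limma. That interval held both 0 and the Ccl12 difference of -0.63. The SD of the Ccl7 log2 values within fractions was 0.36, above 14.0% of the 558 genes within 0.5 log2 units of its mean level. The median of those genes was 0.62. Without the mean-variance trend the adjusted p of Ccl7 was 0.234 in limma.

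Ccl2, Ccl7 and Ccl12 lie in 1 cluster on the plus strand of chromosome 11 in mm9, Ccl2 at chr11:81849073-81850955 and Ccl7 at chr11:81859214-81861027. Summed, they had 648, 524 and 703 normalized counts in LD-high replicates 1, 2 and 3, against 848, 906 and 1072 in LD-low replicates 1, 2 and 3. Most of that sum was Ccl12. Ccl8, which lies beyond Ccl12 (chr11:81928687-81930301), encodes a further monocyte attractant and had 18, 4 and 0 reads in LD-high and 2, 2 and 1 reads in LD-low replicates 1, 2 and 3 and was too low to be tested. The whole span of Ccl2 is shared with Gm17268, annotated on the opposite strand, and reads of this library type cannot be assigned to a strand.

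The inflammatory ligands Ccl3, Ccl4 and Ccl5 did not pass the test either. Ccl3, also known as MIP-1 alpha, had 693, 531 and 806 normalized counts in LD-high replicates 1, 2 and 3, against 649, 873 and 787 in LD-low replicates 1, 2 and 3. The fractions overlapped, and LD-high replicate 2 was the lowest library of all. Its log2 difference was -0.20 ± 0.14 (SE), with a 95% interval of -0.50 to 0.11 and an adjusted p of 0.482 in limma. With 1 library left out it ranged from -0.33 without LD-high replicate 3 to -0.03 without LD-high replicate 2. Ccl4, or MIP-1 beta, had 553, 465 and 759.7 normalized counts in LD-high replicates 1, 2 and 3, against 559, 874 and 763 in LD-low replicates 1, 2 and 3. Here too LD-high replicate 2 was lowest and LD-low replicate 2 highest, and LD-high replicate 3 stood with the LD-low libraries. The log2 difference was -0.31 ± 0.17 (SE, 95% interval -0.68 to 0.06, adjusted p 0.341 in limma), and with 1 library left out it ranged from -0.50 without LD-high replicate 3 (adjusted p 0.146) to -0.15 without LD-high replicate 2 (0.702), with -0.17 without LD-low replicate 2.

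Ccl4 tracked Ccl3 from library to library, and both varied more within fractions than most genes of their level. The ratio of Ccl4 to Ccl3 stayed between 0.798 and 0.942 in LD-high and between 0.862 and 1.001 in LD-low libraries, while Ccl3 itself ranged from 531 to 873 normalized counts. The SD of the log2 values within fractions was 0.26 for Ccl3, above that of 97.1% of the 2017 genes within 0.5 log2 units of its mean level, whose median was 0.12. For Ccl4 it was 0.34, above 99.1% of 1977 genes of like level, with a median of 0.13. The genes are near each other on chromosome 11 in mm9 and on opposite strands, Ccl3 at chr11:83461346-83462857 (minus) and Ccl4 at chr11:83476086-83478185 (plus). Fos, Jun and Egr1, immediate early genes that also respond to tissue dissociation, summed to 12952, 11195.5 and 20378 normalized counts in LD-high replicates 1, 2 and 3, against 16402, 14519.6 and 22329.6 in LD-low replicates 1, 2 and 3. Replicate 3 was thus the highest in this sum in both fractions. Over the 20 immediate early and dissociation response genes listed, replicate 3 was highest too, at 61149 in LD-high and 66823 in LD-low. Not every gene of that list shared this order. Hspa1b had 1058, 1185 and 286 normalized counts in LD-high and 1151, 1967 and 443 in LD-low replicates 1, 2 and 3. LD-high replicate 3 was also the highest of its fraction in Ccl3, Ccl4, Ccl2, Ccl12, Ccl6 and Ccl9. It was the lowest of its fraction in Ccl5, Ccl7 and Cxcl16. Within LD-low the highest library differed. It was replicate 2 for Ccl3, Ccl4 and Ccl5, and replicate 1 for Cxcl16. For Ccl2, Ccl12, Ccl6, Ccl9, Ccl7 and the immediate early sum it was replicate 3. The part of the immediate early genes in the ligands' spread was not tested.

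Ccl5, or RANTES, which T cells and NK cells also make, was rare in these libraries. It had 15.6, 13.4 and 6.68 normalized counts in LD-high replicates 1, 2 and 3 and 13.3, 24.9 and 17.6 in LD-low replicates 1, 2 and 3, with 98 reads over all 6 libraries. The fractions overlapped. The log2 difference was -0.64 ± 0.54 (SE), with a 95% interval from -1.78 to 0.51 (adjusted p 0.544 in limma). It ranged from -0.86 without LD-high replicate 1 to -0.30 without LD-high replicate 3, and it was -0.32 with quantile normalization. The 4 markers of T cells and NK cells in the table summed to 73.0 to 84.0 normalized counts in LD-high and 82.8 to 149 in LD-low libraries, and LD-low replicate 1 was the lowest of its fraction in both these markers and Ccl5. The highest libraries differed, since the markers were highest in LD-high replicate 2 and LD-low replicate 3, and Ccl5 in LD-high replicate 1 and LD-low replicate 2. Their part in the Ccl5 values was not tested.

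Ccl6 and Ccl9, the rodent Ccr1 ligands, were the most read ligands beside Cxcl16 and were measured most precisely. Ccl6 had 3831, 3925 and 4209 normalized counts in LD-high replicates 1, 2 and 3, against 4052, 3819 and 4633 in LD-low replicates 1, 2 and 3. Ccl9 had 2549.5, 2459 and 2673 in LD-high replicates 1, 2 and 3, against 2602, 2333 and 2928 in LD-low replicates 1, 2 and 3. For both genes LD-low replicate 3 was the highest library and LD-low replicate 2 the lowest, so the LD-high values lay inside the range of LD-low. The log2 difference was -0.06 ± 0.08 for Ccl6 (SE, 95% interval -0.23 to 0.11, adjusted p 0.725 in limma) and -0.03 ± 0.08 for Ccl9 (95% interval -0.21 to 0.15, adjusted p 0.897). The sign is not settled: without LD-low replicate 3 both were above 0 (0.02 and 0.05). The ratio of Ccl6 to Ccl9 stayed between 1.502 and 1.60 in LD-high and between 1.56 and 1.64 in LD-low libraries.

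These genes are neighbours on the minus strand of chromosome 11 in mm9, Ccl9 at chr11:83386421-83392138 and Ccl6 at chr11:83401384-83406589, between Ccl5 (chr11:83339280-83344020) and Ccl3. Summed over this cluster of Ccl5, Ccl9, Ccl6, Ccl3 and Ccl4, the libraries had 7643, 7393 and 8455 normalized counts in LD-high replicates 1, 2 and 3, against 7876, 7923 and 9128 in LD-low replicates 1, 2 and 3, with overlap between the fractions. The lncRNA gene E230016K23Rik is annotated across the whole of Ccl6 on the opposite strand. The 250 bases before their starts (RefSeq, GRCm38.p6, minus strand, chr11:83578637-83578886 for Ccl9 and chr11:83593088-83593337 for Ccl6) are printed because the genes tracked each other. Capitals in Ccl9 mark TATAAA matches on either strand, of which a pair overlap, and a TGANTCA match, the AP-1 motif, that begins 53 bases before the start. In Ccl6 none of the motifs searched was found.
Ccl9: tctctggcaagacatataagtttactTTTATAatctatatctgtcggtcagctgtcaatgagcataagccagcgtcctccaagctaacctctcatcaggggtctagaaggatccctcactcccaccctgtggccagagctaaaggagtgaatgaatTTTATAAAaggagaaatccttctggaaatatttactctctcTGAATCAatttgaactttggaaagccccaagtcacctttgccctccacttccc
Ccl6: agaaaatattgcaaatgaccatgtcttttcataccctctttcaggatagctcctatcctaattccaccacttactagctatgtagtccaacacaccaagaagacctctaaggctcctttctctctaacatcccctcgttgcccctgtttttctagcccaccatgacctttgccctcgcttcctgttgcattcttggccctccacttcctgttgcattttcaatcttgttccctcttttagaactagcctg

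**Figure D2:**
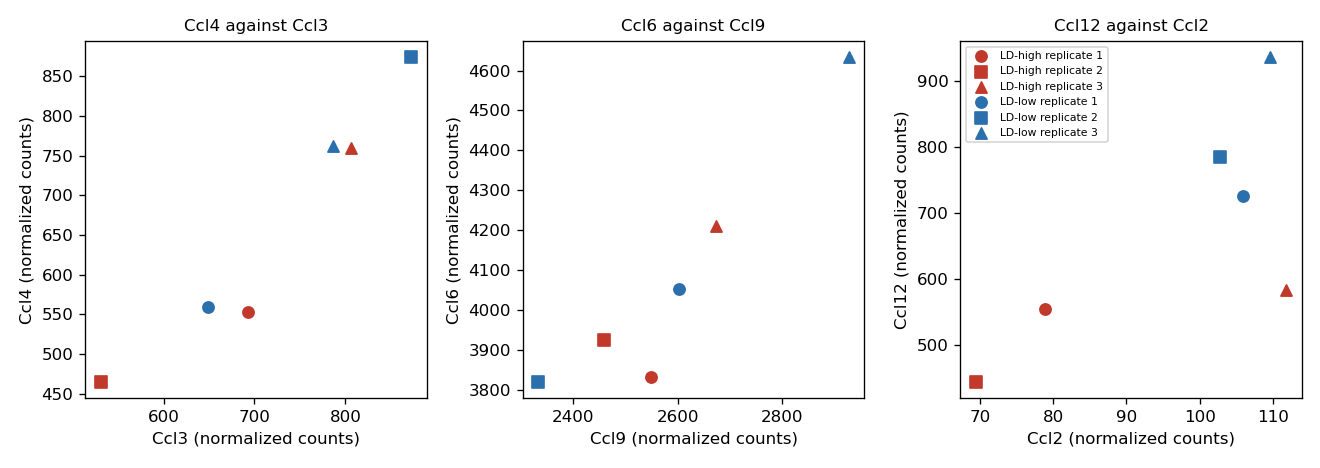
Normalized counts of Ccl4 against Ccl3, Ccl6 against Ccl9 and Ccl12 against Ccl2 in each library, LD-high in red and LD-low in blue, with marker shape for the replicate number; axes do not start at 0. In the first pair of panels the points of both fractions lie along 1 band, while Ccl12 is lower in all LD-high libraries, LD-high replicate 3 among them, where Ccl2 was highest.

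Cxcl16, the membrane-bound ligand that also acts as a scavenger receptor for oxidized lipoprotein, was the only tested ligand with a higher mean in LD-high libraries. It had 2641, 2437 and 2349 normalized counts in LD-high replicates 1, 2 and 3, against 2612, 2368 and 2078 in LD-low replicates 1, 2 and 3. The fractions overlapped, and the log2 difference was 0.08 ± 0.09 (SE, 95% interval -0.11 to 0.26, adjusted p 0.667 in limma). It changed sign without LD-low replicate 3 (-0.01). Cxcl16 lies apart from the Ccl clusters, at chr11:70267485-70273486 on the minus strand in mm9, and 552 bases of its span overlap Zmynd15 on the opposite strand. Of the proteases that can shed it, Adam10 had a log2 difference of 0.17 ± 0.08 and Adam17 one of 0.01 ± 0.08 (SE, adjusted p 0.287 and 0.951 in limma).

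Cxcl2, the neutrophil attractant, was all but unread. It had 6 reads in LD-low replicate 1, or 4.21 normalized counts, and 0 reads in the other 5 libraries. A count of 0 allows up to 3 reads, a level of 2.23, 3.36 and 5.01 normalized counts in LD-high replicates 1, 2 and 3 and of 3.25 and 2.79 in LD-low replicates 2 and 3, so no difference was detectable at this depth. Floors of this kind cover counting error only. The gene lies on chromosome 5 (chr5:91332897-91334935 in mm9, plus strand). Its promoter (RefSeq, GRCm38.p6, chr5:90903649-90903898, plus strand) is printed because it is the promoter among those of 5 members given in the RefSeq table (Ccl3, Ccl6, Ccl9, Ccl12 and Cxcl2) that held an NF-kB motif. The motif searched was GGGA and CC with any 4 bases between them. Capitals mark a match on the plus strand, which begins 97 bases before the start, and one on the other strand that overlaps it.
Cxcl2: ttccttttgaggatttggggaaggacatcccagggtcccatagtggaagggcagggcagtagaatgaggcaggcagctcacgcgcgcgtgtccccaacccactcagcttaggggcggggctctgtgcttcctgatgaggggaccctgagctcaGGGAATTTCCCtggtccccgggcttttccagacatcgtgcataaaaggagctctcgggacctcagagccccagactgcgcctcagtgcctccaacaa
Over both strands of the 250 bases before the start of 32851 promoters, the NF-kB motif was found in 17.6%, TATAAA in 12.4% and TGANTCA in 6.75%. A repeat of interferon response elements, GAAA given again after any 2 bases, was found in 2.98% and in none of the 5 members. A match is a description of the sequence and says nothing of binding in these cells.

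**Figure D3:**
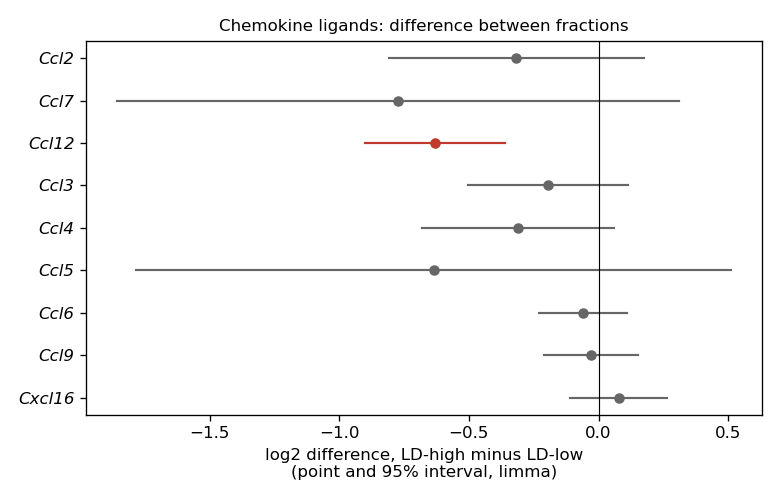
Log2 difference, LD-high minus LD-low, of the 9 tested chemokine ligands with 95% intervals from limma; red marks the gene past an adjusted p of 0.05. Ccl12 at -0.63 is the ligand whose call passed, and the intervals of Ccl5 and Ccl7, the least read ligands tested, are the widest.

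Per kilobase of the longest GENCODE transcript, Ccl6 was the highest ligand, with means of 2769.7 normalized counts per kilobase in LD-high and 2895 in LD-low libraries. A group of 5 ligands followed, whose ranges over the 6 libraries overlapped each other: Ccl12 (826 to 1744 per kilobase), Ccl4 (704 to 1324), Ccl3 (693 to 1139), Cxcl16 (770 to 979, its lowest library at 769.9) and Ccl9 (776 to 974). Ccl12 averaged 981 per kilobase in LD-high and 1519 in LD-low libraries, the highest means of this group. In LD-high the mean of Cxcl16 was close, at 917, and Ccl12 was not the highest of the group in every LD-high library. Ccl2 was lower, at 63.4 to 102 per kilobase, and Ccl5 (9.998 to 37.3) and Ccl7 (10.4 to 32.5) overlapped each other below it. The order depends on which transcript is taken as the length.

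By Pearson's r over the log2 values of the 6 libraries, the genes whose pattern was most like that of Ccl12 were Atrx (r = 0.99, Spearman's rho 0.94), Pcp4 (r = 0.99, rho 1) and Emp3 (r = 0.99, rho 1). Of the 10199 genes averaging 50 normalized counts or more, 218 had an r above 0.9 with Ccl12, so this likeness over 6 libraries is a description and sets no gene apart. Atrx, a chromatin remodeller, had 1076, 893 and 1049 normalized counts in LD-high replicates 1, 2 and 3, against 1352, 1491 and 1640.4 in LD-low replicates 1, 2 and 3.

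Among 30 other chemokine ligands listed, 16 were in the table and 10 were tested, and Cxcl13 fell. Cxcl13, which draws B cells through Cxcr5, had 19.4, 43.7 and 23.4 normalized counts in LD-high replicates 1, 2 and 3, against 126, 58.5 and 103 in LD-low replicates 1, 2 and 3. Its fractions did not overlap, and the log2 difference was -1.72 ± 0.37 (SE, 95% interval -2.50 to -0.93, adjusted p 0.0250 in limma). The call was lost in 4 of the 6 fits without 1 library: without LD-high replicate 1 (adjusted p 0.0551) or 3 (0.0735) and without LD-low replicate 1 (0.0734) or 3 (0.123). It was also lost with quantile normalization (0.0547) and without the mean-variance trend (0.186). The other 9 did not pass, and 0 were called higher in limma, edgeR or DESeq2. The median of the 10 was -0.73, 9 lay below 0, and the fractions did not overlap for 5 of them, all lower in LD-high, where 11.7% of all genes tested lay apart in this direction.

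The Cxcr3 ligands Cxcl9 and Cxcl10, which interferons induce, were among those 5. Cxcl10 had 73.7, 25.8 and 43.4 normalized counts in LD-high replicates 1, 2 and 3, against 92.6, 79.0 and 117 in LD-low replicates 1, 2 and 3. Its log2 difference was -1.11 ± 0.34 (SE, adjusted p 0.0878 in limma), and with 1 library left out it ranged from -1.48 without LD-high replicate 1, where it passed (adjusted p 0.0338), to -0.74 without LD-high replicate 2 (0.212). The highest adjusted p was 0.285, without LD-low replicate 3. Cxcl9 was rarer, at 1.67 to 7.84 normalized counts in LD-high and 11.1 to 32.5 in LD-low libraries, and did not pass (-1.82 ± 0.70, adjusted p 0.171). Cxcl14 (-1.62 ± 0.53, adjusted p 0.107) and Cxcl17 (-0.74 ± 0.32, adjusted p 0.220) completed the 5. Cx3cl1, the neuronal ligand of the microglial receptor Cx3cr1, was the exception in sign, with a log2 difference of 0.80 ± 0.64 (adjusted p 0.519).

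**Figure D4:**
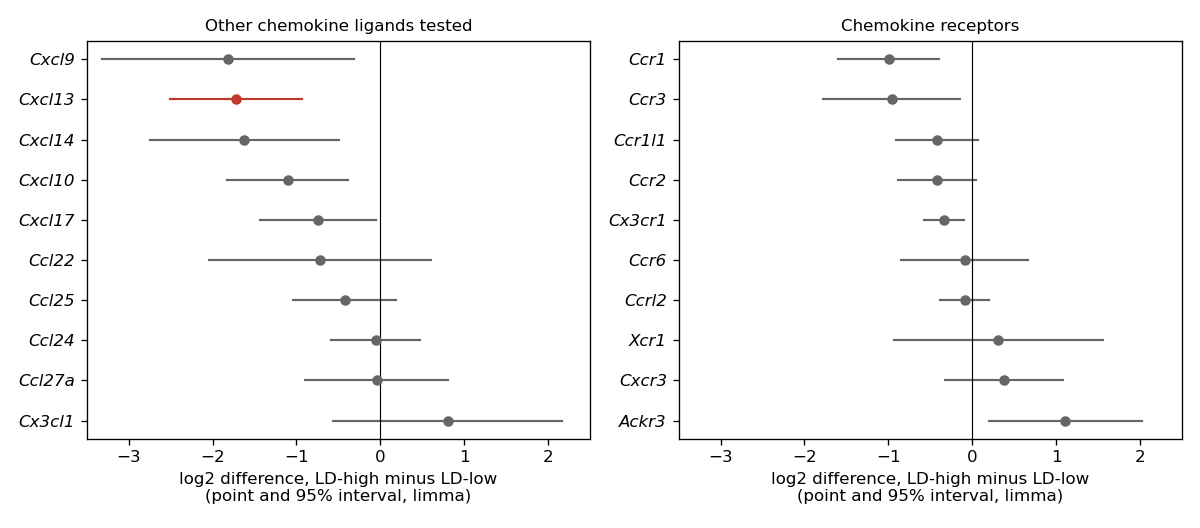
Log2 difference, LD-high minus LD-low, with 95% intervals from limma, for 10 other chemokine ligands (left) and 10 of the 11 chemokine receptors (right) that were tested; red marks a gene past an adjusted p of 0.05. Cxcl13 at -1.72 is the gene that passed, and of the receptors none did.

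On the receptor list, 0 of 11 tested genes passed in limma. An unadjusted p under 0.05 in limma was seen for 4 of them, and for 2298 of all 11624 genes tested. On this list edgeR called 0 and DESeq2 called Cx3cr1 lower. Ccr1, which Ccl3, Ccl5, Ccl6 and Ccl9 bind, had 122, 303 and 175 normalized counts in LD-high replicates 1, 2 and 3, against 318, 561 and 293 in LD-low replicates 1, 2 and 3. The fractions overlapped, since LD-high replicate 2 exceeded LD-low replicate 3. Its log2 difference was -0.997 ± 0.28 (SE, adjusted p 0.0660 in limma), and with 1 library left out it ranged from -1.35 without LD-high replicate 2, where it passed (adjusted p 0.0209), to -0.69 without LD-high replicate 1 (0.179), with -0.71 without LD-low replicate 2 (0.259). Ccr2, the receptor of Ccl2, Ccl7 and Ccl12, which marks monocytes more than microglia, had a log2 difference of -0.42 ± 0.22 (adjusted p 0.305). Cx3cr1 had 137266, 96974 and 106783 normalized counts in LD-high replicates 1, 2 and 3, against 149132, 144957 and 132232 in LD-low replicates 1, 2 and 3, and a log2 difference of -0.34 ± 0.11 (adjusted p 0.115 in limma, 0.032 in DESeq2). Ackr3, a scavenging receptor for Cxcl12, was higher in every LD-high library, at 37.0 to 48.4 normalized counts in LD-high and 12.1 to 35.8 in LD-low, without passing (1.11 ± 0.43, adjusted p 0.169). It was the 1 tested receptor apart in this direction, as were 12.7% of all genes tested. Another 3 lay apart with LD-high lower, where 11.7% of all genes did. Among these were Ccr3 (-0.96 ± 0.38, adjusted p 0.178 in limma) and Ccr1l1 (-0.42 ± 0.23, adjusted p 0.331). Of the 11 tested, 8 lay below 0.

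Lists of NF-kB, interferon and immediate early genes, which hold targets as well as regulators, were read against all genes tested. Of those, 3.36% were called in limma, with 1.82% called lower. Before adjustment, 2298 of all 11624 genes tested had a p under 0.05 in limma. Of 21 tested inducers and feedback genes of NF-kB, 0 passed in limma, edgeR or DESeq2 and 5 had an unadjusted p under 0.05 in limma, with a median of -0.11; the smallest p values belonged to the subunit gene Relb (-0.25 ± 0.09 SE, adjusted p 0.144) and the nuclear IkB gene Nfkbiz (-0.42 ± 0.15, adjusted p 0.151). Of 18 interferon regulators and targets, 2 fell and 0 rose: Rsad2 (-1.29 ± 0.25, adjusted p 0.0157), whose product blocks viral replication, and the transcription factor gene Irf7 (-0.66 ± 0.17, adjusted p 0.0457), with a list median of -0.15; DESeq2 also called Ifit1 lower. Of 19 immediate early and dissociation response genes, the transcription factor genes Klf4 (-1.73 ± 0.43, adjusted p 0.0405) and Klf2 (-0.58 ± 0.15, adjusted p 0.0431) fell, 0 rose, and the median was -0.24. The call for Rsad2 was lost without LD-low replicate 2 (adjusted p 0.0631) or 3 (0.102). That for Irf7 was lost without LD-high replicate 1 (0.0994) or 2 (0.129) and without LD-low replicate 2 (0.182) or 3 (0.158), and also with GC correction (0.0518) and quantile normalization (0.0787). That for Klf4 was kept only without LD-high replicate 1 (0.0439), with 0.218 without LD-low replicate 2 as the highest, and was lost with quantile normalization (0.0807). That for Klf2 was lost in all 6 such fits (0.0702 to 0.173), with GC correction (0.0658), without the filter (0.0535) and with quantile normalization (0.0727). Without the mean-variance trend all 4 calls were lost (0.144 to 0.207). In limma 6 of 7 tested neutrophil markers and 2 of 4 tested monocyte markers, Chil3 among them, were called lower in LD-high as well. Ccr2, on the same monocyte list, did not pass (adjusted p 0.305 in limma). The part of neutrophils and monocytes in these values was not tested.

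Genes that act on the ligands after their induction were tested too. Zfp36, whose product in mice speeds the decay of AU-rich messages such as Ccl3, fell: it had 7166, 7619.7 and 8634 normalized counts in LD-high replicates 1, 2 and 3, against 9733, 10330.0 and 12843 in LD-low replicates 1, 2 and 3 (log2 difference -0.48 ± 0.10 SE, adjusted p 0.0179 in limma). Its fractions did not overlap, the call was lost without LD-high replicate 2 (adjusted p 0.0564) or LD-low replicate 3 (0.0766), and the other 6 genes of the decay list did not pass. On the list of proteases that shed or trim chemokines, the membrane metalloprotease gene Mmp14 fell, with 1298, 1428 and 1444 normalized counts in LD-high replicates 1, 2 and 3, against 1999.8, 1779.8 and 1845 in LD-low replicates 1, 2 and 3. Its log2 difference was -0.43 ± 0.08 (SE, adjusted p 0.0147 in limma), and the call was lost without LD-low replicate 3 (0.0645). Without the mean-variance trend the calls for Zfp36 (0.205) and Mmp14 (0.161) were lost as well. The other 5 tested proteases did not pass, and the macrophage elastase gene Mmp12, at -1.10 ± 0.46, ranged from 75.1 to 412 normalized counts within LD-low.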

How the data were processed

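RNA from 3 LD-high and 3 LD-low microglia samples was amplified as cDNA (SmartSeq) and tagmented, per the labels' protocols. The submitters' processing notes name FastQC 0.11.4, the aligner STAR 2.5.1b, the mm9 build and DESeq2, and per the labels STAR also gave the counts. Annotation and strand setting: not given in the sources used here. Each deposited signal value is a normalized count per gene: reads divided by 1 size factor per library. Of its values, 100% were whole multiples of 1 step per library within 0.01 reads, which returned the reads. The 22 symbols that are dates stayed in the fit unnamed.

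Differences were tested with limma 3.58.1 under R 4.3.3 on log2(normalized count + 1) with a trended prior variance, a scale that understates changes of low genes. The test was 2-sided and had no replicate term. Alternatives were other pseudocounts, filters and scalings, sample weights, no trend, length and GC corrections (loess), the replicate number as a block, edgeR 4.0.16 and DESeq2 1.42.0 on the recovered reads, and each library left out. Coordinates and lengths are from GENCODE vM1 (mm9), promoters from RefSeq.

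The members and gene lists were chosen with earlier results of these data known. The naming rule took the 10 members, and of each further list the genes that passed and the 2 with the smallest p; some of these, and most markers, appear only in counts. Adam10, Adam17, Ccl8, Fos, Jun, Egr1 and Hspa1b were added after their values were seen. Reads were amplified without molecular identifiers, so floors cover counting error only. Some items are not reported here.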

Additional observations from a re-analysis of the deposited data

How the results depend on the processing

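The count of ligands called, 1, stayed at 1 under every alternative except the fits without a mean-variance trend, where it was 0, and without 1 library, where it ranged from 0 to 1. Ccl12 was lower in LD-high in all these fits, with log2 differences between -0.71 and -0.51 and adjusted p values between 0.000787 (DESeq2) and 0.186. The count of all genes called, 390, was 252 with quantile normalization, 15 without the trend, 715 with DESeq2 (382 higher, 333 lower), and between 52 (without LD-low replicate 3) and 421 (without LD-low replicate 1) with 1 library left out; with equal totals it was 118 higher and 233 lower, against 178 and 212. The cause was not tested.

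Signs changed only for genes near 0, among those named: with quantile normalization for Ccr6 (0.096), Ccl27a (0.12) and Ccl24 (0.078), and with sample weights for Ccl27a (0.031). Over the fits without 1 library, the log2 difference ranged from -0.12 to 0.019 for Ccl6, -0.11 to 0.055 for Ccl9, -0.0081 to 0.16 for Cxcl16, -0.26 to 0.067 for Ccr6, -0.24 to 0.22 for Ccl27a, -0.33 to 0.085 for Ccl24 and -0.21 to 0.025 for Ccrl2.

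Nothing says that same-numbered samples share a pool. Deviations from the group means correlated at 0.16, 0.13 and 0.06 across genes for replicates 1, 2 and 3, each the highest for its sample. With the replicate block, 1090 genes were called (1153 with length and 872 with GC correction), and the count of ligands was 1 in all 3 fits, with Ccl12 at an adjusted p of 0.00169, 0.00142 and 0.00356. On the ligand and receptor lists the block also called Cxcl10 (adjusted p 0.0270), Ccr1 (0.000985) and Cx3cr1 (0.00742). Over all 11624 genes tested, the block called 530 lower and 560 higher, against 212 and 178 without it. It called 9 immediate early and dissociation response genes lower (Btg2, Ier5, Hspa1b, Egr1, Klf4, Jun, Klf2, Ier2 and Junb), against 2 without it. On the NF-kB list it called Nfkbiz and Tlr2 lower, against 0. On the interferon list it called 3 lower and 1 higher. Ligands with few reads limit what could be seen, with Ccl5 at 98 and Ccl7 at 101 reads over 6 libraries.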
